A study of Rattus norvegicus with 12 samples.

Results

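Genes that changed between 2 h and 6 h of stretch were examined by setting the 3 arrays of rat heart muscle cells stretched for 6 h against the 3 arrays of cells stretched for 2 h. These are 6 of the 12 arrays of the series, and all 14376 named genes that passed the detection filter were tested. The cells were ventricular cardiomyocytes isolated from newborn rats (NRVCM), grown for 24 h in DMEM medium with 10% serum on silicone membranes coated with collagen type I. Membranes were then pulled in a pulsed, biaxial rhythm to 20% elongation for 2, 6 or 24 h, and the control group was left unstretched on plates of the same kind. All groups shared the medium with serum and antibiotics, and the labels give no strain, sex or number of animals per culture. The 3 replicates of each group are called biological replicates, so p-values measure the spread between these cultures. The control group carries no time label and no unstretched group is assigned to 2 h or 6 h, so longer stretch and 4 more hours in culture cannot be told apart here. In a culture of this kind, fewer cells of a type and less RNA per cell cannot be told apart either.

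Stretching a heart muscle cell acts on integrins, the Z-disc and ion channels and starts mitogen-activated kinase and calcineurin signalling. Immediate-early genes such as Fos, Jun, Egr and Nr4a family members are known to be transcribed within minutes without new protein synthesis, and their short-lived messages and feedback inhibitors usually end the first wave. A later programme follows, with natriuretic peptides, fetal contractile proteins, proteins of the stressed Z-disc and the machinery that makes ribosomes. Cultures of newborn hearts also hold fibroblasts, smooth muscle cells, endothelial cells and resident macrophages, and the macrophages are the usual source of chemokines, interleukin-1 and MHC class II.

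Each array measured RNA by the brightness of probes in 1 colour, and signals below are scaled so that every array has the same 75th percentile. The 12 arrays had 75th percentiles of 1142 to 1671 before scaling and 64.7 to 70.6% of spots well above background. Defining markers of cardiomyocytes were present, and all 15 of that list were measured. Their summed signal was 1664600 to 1851000 at 2 h and 1599100 to 1654800 at 6 h, with 0 of 15 called between the times. Arrays of the 2 h group and 2 of the 6 h arrays lay on 1 slide, while 6 h replicate 3 lay on a second slide, scanned separately, with the 24 h arrays.

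Between 2 h and 6 h, 1506 of 14376 genes were called, which is 10.5% of those tested, at a Benjamini-Hochberg adjusted p under 0.05 from limma. Of these, 529 were higher at 6 h (3.68% of the genes tested) and 977 were lower (6.8%). Most changes were small. The median size among the called genes was 0.30 on the log2 scale, 125 genes moved at least 1.5-fold (41 up and 84 down), and 20 moved at least 2-fold (1 up and 19 down). The 3 arrays of 6 h and the 3 of 2 h did not overlap in 1502 of the called genes, against 34.6% of all genes tested. The 1 rise of at least 2-fold, Hsd3b1, a steroid dehydrogenase, was not well above background on any 2 h array and has no measured fold. Several of the largest falls were inflammatory, MHC class II and interferon genes, and the largest rises included Duox2 and Gnrh1.

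The split between rises and falls depended on how arrays were scaled. Scaling by the 75th percentile put the median of all genes at -0.04, and 64.9% of calls were falls. Scaling by each array's median gave 1049 rises and 453 falls, quantile normalization gave 946 and 623, and the deposited series matrix gave 747 and 668. Scaling on 7 spike-in probes moved the median of all genes to 0.27 and gave 629 rises and 30 falls. Changes are therefore reported relative to the 75th percentile, and small falls of whole lists carry this limit. The count also depended on single arrays. It was 556 without 2 h replicate 1, 924 without 2 h replicate 2, 345 without 6 h replicate 1, 814 without 6 h replicate 2 and 599 without 6 h replicate 3. With slide as a block, which sets 6 h replicate 3 aside from this contrast, 599 genes were called (176 up, 423 down), and within slide 1 alone 238 were called (49 up, 189 down).

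Of 20 chemokine genes tested, 7 fell (6.8% of all genes did), 1 rose (3.68%) and 12 were not called. The median difference of the list was -0.47 against -0.04 for all genes, and it was -0.22 with the series matrix values and -0.15 with spike-in scaling, which left 5 falls. Ccl4, a chemokine that draws monocytes and T cells, gave scaled signals of 86.1, 89.1 and 113 at 2 h and 40.9, 39.8 and 45.0 at 6 h, with 90.5, 100.1 and 89.2 in the control. Every 6 h array lay below every 2 h array, and the 2 h arrays lay within or close to the control range. The log2 difference was -1.19 (SE 0.15, adjusted p = 0.00380). Its neighbour Ccl3, which binds the same receptors, had 280.4, 349 and 375 at 2 h and 140.3, 172 and 172 at 6 h, a fall of 2.07-fold (log2 difference -1.05, SE 0.11, adjusted p = 0.00217). Cxcl2, which draws neutrophils, had 234, 202 and 293 at 2 h and 90.4, 94.1 and 140.2 at 6 h (log2 difference -1.18, SE 0.18, adjusted p = 0.00656), and the highest 6 h array stayed below the lowest 2 h array. The probes for Ccl3 and Ccl4 lie close to each other in the rn4 build, at chr10:71744611-71744670 and chr10:71760265-71760324.

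Ccl9 fell by 1.03 on the log2 scale (adjusted p = 0.00518), Ccl7 by 0.75 (adjusted p = 0.00416) and Ccl2 by 0.60 (adjusted p = 0.0291). Ccl5, a chemokine for T cells, fell by 1.03 (adjusted p = 0.0300), but left the called set without any 1 of 5 of the 6 arrays (adjusted p up to 0.0808) and within slide 1 (adjusted p = 0.0620). Cxcl10, an interferon-induced chemokine, went the other way, from 183, 253 and 228 at 2 h to 305, 318 and 302 at 6 h (log2 difference 0.49, SE 0.11, adjusted p = 0.0257). That rise was lost without 2 h replicate 1 and without any 1 of the 6 h arrays (adjusted p up to 0.0779). Within slide 1, and also with slide as a block, 5 chemokines were called lower and none higher. The falls of Ccl4, Ccl3, Ccl9 and Cxcl2 kept their call in all 22 alternatives. With normexp background correction Ccl4 fell by 0.61 and Ccl9 by 0.57, which is a smaller change for dim probes.

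Of 8 called chemokines, 4 had an entry in the RefSeq promoter table (build GRCr8), and 3 of these 4 held a match to the NF-kB motif. These were Ccl9 and Cxcl2, which fell, and Cxcl10, which rose. Ccl7, which fell, held no match. Within 250 bases before to 50 after the start, 4.18% of 33469 promoters hold that motif on either strand. The stretch of Cxcl2 is shown because it is the largest chemokine fall with an entry, at chr14:17467279-17467369 on the minus strand, with the motif in capitals (2 overlapping matches).
Cxcl2: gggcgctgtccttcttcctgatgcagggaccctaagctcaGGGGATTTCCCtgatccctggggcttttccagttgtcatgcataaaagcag
A match describes letters in the window and is not evidence of a bound factor.

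The interleukin-1 genes Il1a and Il1b and the cytokine gene Tnf fell. Il1a, which encodes the interleukin-1 alpha alarmin, was low at 6 h. Its signals were 47.0, 61.7 and 56.7 at 2 h and 10.5, 14.7 and 16.2 at 6 h, with 43.9, 45.1 and 47.5 in the control and 12.7, 8.70 and 14.7 at 24 h (log2 difference -2.02, SE 0.20, adjusted p = 0.00204). The groups were far apart, but 1 of the 3 6 h arrays was well above background, and normexp background correction shrank the difference to -0.63. Its probe lies at chr3:116913748-116913807 in rn4. Il1b, the secreted interleukin-1, had 299.7, 354 and 419 at 2 h and 185, 194 and 189 at 6 h (log2 difference -0.91, SE 0.13, adjusted p = 0.00596), and all 6 h arrays lay below all 2 h arrays. Tnf, the cytokine that activates NF-kB in neighbouring cells, was already lower than control at 2 h. It went from 240.1, 211 and 202 in the control to 141, 135 and 177 at 2 h and 71.3, 76.8 and 89.3 at 6 h (log2 difference -0.93, SE 0.13, adjusted p = 0.00596), a stepwise course with no overlap between the 3 groups.

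Among 21 genes of the interleukin-1 and interleukin-6 families, 5 fell and 1 rose, beside 6.8% and 3.68% of all genes. Besides Il1a and Il1b the falls were Cish, a feedback inhibitor of cytokine receptors (-0.39), Il11ra1, the interleukin-11 receptor (-0.28), and Il6st, the shared signal chain gp130 (-0.25). The falls of this list numbered 2 without 2 h replicate 2 or 6 h replicate 1, and 3 without 2 h replicate 1, 6 h replicate 2 or 6 h replicate 3. The rise was Il1rl1, the interleukin-33 receptor, described below with the load markers. Of 21 TNF and NF-kB target genes 3 fell and none rose: Tnf, Cd40 (-0.48) and the adhesion molecule Icam1 (log2 difference -0.39, SE 0.06, adjusted p = 0.00890). The Cd40 call was lost within slide 1 and without any 1 of 5 arrays (adjusted p up to 0.119). Mmp9, a gelatinase stored and released by white blood cells, fell from 38.4, 44.3 and 38.8 to 19.5, 18.0 and 15.9 (log2 difference -1.19, SE 0.16, adjusted p = 0.00527). At 6 h, 1 of 3 arrays was above background, and the call was lost with normexp (-0.41).

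Of 7 tested genes of MHC class II antigen presentation, 6 were called lower, against 6.8% of all genes, and none higher. The list median was -0.64, the lowest of the 42 pathway lists in the main setting. It was -0.41 with the series matrix values and -0.33 with spike-in scaling, which left 2 called, RT1-Da and RT1-Bb. Cd74 (adjusted p = 0.0588) and RT1-DMb (adjusted p = 0.253) were among those lost there. RT1-Da, the alpha chain of the rat DR molecule, had 16.2, 19.0 and 29.3 in the control, 41.2, 37.1 and 35.9 at 2 h and 13.2, 18.5 and 13.7 at 6 h. It was higher than control at 2 h (0.87, adjusted p = 0.0309) and then fell (log2 difference -1.34, SE 0.21, adjusted p = 0.00783). Its 6 h arrays were below all 2 h arrays and overlapped with the control. RT1-Da was not well above background on every 2 h and 6 h array, so this course rests partly on dim signals. RT1-Bb, the beta chain of the DQ-like molecule, had 72.9, 88.8 and 96.7 at 2 h and 31.4, 40.2 and 39.6 at 6 h (log2 difference -1.22, SE 0.28, adjusted p = 0.0266), and a further probe of the gene gave -1.32. Cd74, the invariant chain that guides class II to the endosome, had 152, 176 and 157 at 2 h and 82.1, 101 and 78.8 at 6 h (log2 difference -0.89, SE 0.12, adjusted p = 0.00524). RT1-DMb, RT1-Db1 and RT1-DMa, of the peptide-loading and DR molecules, fell by 0.64, 0.49 and 0.46. At 24 h the list was lower still against control, with a median of -1.83.

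With slide as a block and within slide 1, 4 class II genes were called lower, and 4 or 5 when 1 of the 6 arrays was left out. RT1-Bb lost its call without any 1 of the 6 arrays (adjusted p up to 0.0922), and RT1-Da lost it within slide 1 (adjusted p = 0.0525) and with normexp (-0.43). Promoter entries existed for 5 of the 6 called genes. RT1-Da and RT1-Bb held both an X1 box (in 0.221% of promoters, either strand) and a Y box (CTGATTGG, in 3.5%). These boxes are the textbook landing site of the class II regulatory complex and do not overlap each other. They are shown in capitals for the class II genes with the largest falls, RT1-Da at chr20:4515289-4515410 on the plus strand and RT1-Bb at chr20:4604135-4604255 on the minus strand (GRCr8).
RT1-Da: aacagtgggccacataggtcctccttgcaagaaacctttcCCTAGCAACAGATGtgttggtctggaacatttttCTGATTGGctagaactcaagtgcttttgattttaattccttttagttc
RT1-Bb: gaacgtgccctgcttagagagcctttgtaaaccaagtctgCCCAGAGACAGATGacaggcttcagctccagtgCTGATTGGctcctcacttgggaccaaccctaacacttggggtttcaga
RT1-Db1 held the Y box alone, and RT1-DMa and Cd74 held neither box in this window.

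Interferon-stimulated genes were lower at 6 h in 10 of 29 cases (6.8% of all genes) and higher in 1, Cxcl10 (3.68%). Usp18, which removes ISG15 from proteins and dampens interferon signalling, had 118, 154 and 95.7 at 2 h and 59.4, 58.6 and 73.7 at 6 h (log2 difference -0.92, SE 0.17, adjusted p = 0.0117). Isg15 itself, the ubiquitin-like modifier, had 226, 200.01 and 176 at 2 h, 126, 113 and 142 at 6 h and 291, 329 and 270.4 at 24 h (log2 difference -0.66, SE 0.14, adjusted p = 0.0189), so its lowest level was at 6 h and its highest at 24 h. The Isg15 call was lost without 2 h replicate 1, 6 h replicate 1 or 6 h replicate 2 (adjusted p up to 0.0663) and within slide 1 (adjusted p = 0.0598). Oas1a, a sensor of double-stranded RNA, fell by 1.32 on the log2 scale (adjusted p = 0.0346) with 1 of 3 arrays above background at each time. The transcription factors Irf7 and Stat2 fell by 0.44 and 0.30, and the immunoproteasome subunits Psmb8 and Psmb9 by 0.43 and 0.41. The list median was -0.21 and turned to 0.10 with spike-in scaling. Within slide 1 the list had 4 falls, and it had 1 fall without 6 h replicate 1, 3 without 2 h replicate 1, 4 without 2 h replicate 2 and 6 without 6 h replicate 2 or 3. The calls of Usp18 and Oas1a were among those lost without that array (adjusted p up to 0.0522 and 0.111).

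**Figure D1:**
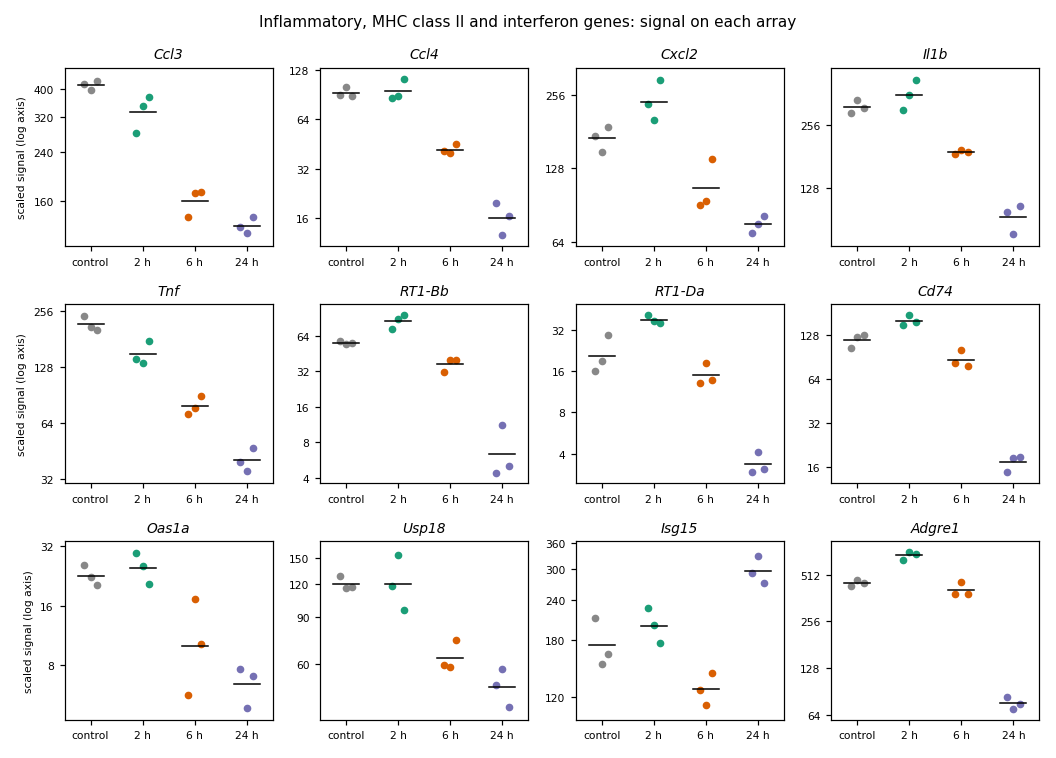
Scaled signal on a log axis for 12 chemokine, cytokine, MHC class II, interferon and macrophage genes in the control and after 2, 6 and 24 h of stretch. Points are arrays (3 per group) and bars are group means on the log scale. In each panel the 3 arrays of 6 h lie below the 3 of 2 h, and in all but Isg15 the 24 h mean lies lower still.

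Several macrophage markers fell as well. Of 16 macrophage and leukocyte markers 11 were measured. Between 2 h and 6 h, 6 were called lower and none higher, with a median of -0.31, while 6.8% of all genes were lower. Adgre1, the macrophage surface receptor known as F4/80, had 434, 469 and 451 in the control, 639, 710.2 and 693 at 2 h and 383, 456 and 384 at 6 h (log2 difference -0.74, SE 0.08, adjusted p = 0.00265). The 2 h arrays stood above both other groups, and the 6 h arrays overlapped with the control. C1qa, a complement chain made by macrophages, went from 218, 214 and 257 to 121, 156 and 166 (log2 difference -0.65, SE 0.11, adjusted p = 0.00966). Itgam, Aif1, Ptprc and Fcgr1a fell by 0.45, 0.39, 0.34 and 0.31. Summed over the 11 markers, signal was 24654 to 24768 in the control, 26138 to 30317 at 2 h, 22539 to 25183 at 6 h and 8709 to 10067 at 24 h. Cd163, C1qc, Mrc1 and Cd3e were among the 5 that did not pass the detection filter. Within slide 1 and also without 6 h replicate 1, 3 of the 11 were called lower, and with spike-in scaling none was (median 0.01). The part of these cells in the falls of chemokines, interleukin-1, class II and interferon genes was not tested.

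The other marker lists moved less or not at all (6.8% of all genes fell and 3.68% rose). Cardiomyocyte markers had no call among 15 and a median of -0.09. Fibroblast markers had 1 rise among 13, Pdgfra (0.21), and epicardial, neural and red blood cell markers had no call among 8, 4 and 3. Endothelial markers had 2 falls among 13, Vwf (-0.38) and Cdh5 (-0.31). Smooth muscle and pericyte markers had 5 falls among 11, Myh11 (-0.48), Rgs5 (-0.43), Abcc9 (-0.43), Smtn (-0.33) and Tagln (-0.18). Their summed signal was 96399 to 108360 at 2 h and 87799 to 92436 at 6 h. Of these smooth muscle calls, 1 was left with slide as a block and none within slide 1 or without 2 h replicate 3, 6 h replicate 1 or 6 h replicate 2.

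**Figure D2:**
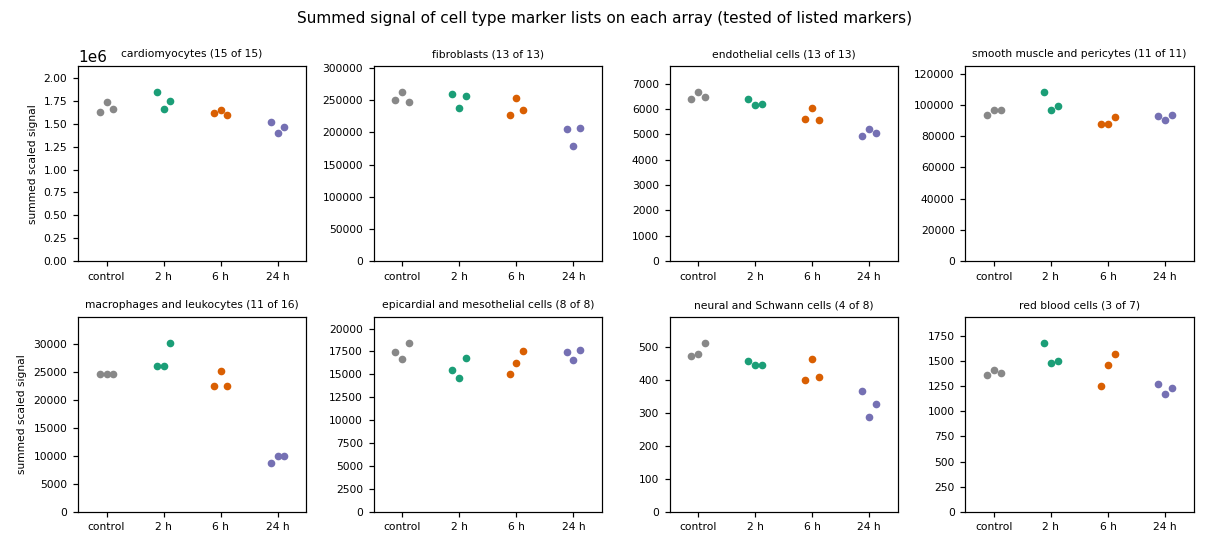
Summed scaled signal of 8 lists of cell type markers on each of the 12 arrays, on axes that start at 0, with the number of measured and listed markers in each title. Macrophage markers were highest at 2 h, and at 24 h lay between 8709 and 10067, below all other groups. Cardiomyocyte markers at 24 h, between 1402300 and 1519400, and fibroblast and endothelial markers also lay below all other groups.

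Some immediate-early genes were lower at 6 h than at 2 h, and most were not called between the times. Among 10 AP-1 subunits, transcription factors that pair as Fos and Jun proteins, 3 fell and none rose between 2 h and 6 h, with a median of -0.28 (6.8% of all genes fell). At 2 h, 7 of the 10 were called above control (background 3.1% of genes), and at 6 h 4 were (5.06%). Both comparisons with control share arrays with the 6 h to 2 h comparison. Fos had 301, 220.1 and 242 in the control, 401, 363 and 386 at 2 h and 278, 276 and 294 at 6 h (log2 difference -0.44, SE 0.11, adjusted p = 0.0327). Its 6 h arrays lay below all 2 h arrays and inside the range of the control. Jund, an AP-1 subunit with high basal levels, had 9767, 10827 and 10101 in the control, 15148, 13678 and 14278 at 2 h and 11550, 12039 and 11696 at 6 h (log2 difference -0.29, SE 0.06, adjusted p = 0.0169), and its 6 h arrays stayed above all control arrays. Jun had 3947, 3546 and 3848 at 2 h and 3034, 3246 and 3314 at 6 h (log2 difference -0.24, SE 0.06, adjusted p = 0.0318). The Fos call was lost without any 1 of the 6 arrays (adjusted p up to 0.103), and within slide 1 or with slide as a block no AP-1 subunit was called (Fos -0.47, Jund -0.28, Jun -0.27). Jund was lost without 2 h replicate 1, 6 h replicate 1 or 6 h replicate 3, and Jun without any 1 of 5 arrays (adjusted p up to 0.0681 and 0.115). With spike-in scaling Jund and Jun turned to 0.03 and 0.07, neither called.

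Atf3, Fosl1 and Junb did not pass the test between 2 h and 6 h. Atf3, a stress-induced partner of AP-1, had 1174, 1105 and 1179.6 in the control, 2564, 2413 and 2769.5 at 2 h and 2295, 2273 and 2375 at 6 h, a difference of -0.16 between the times (95% interval -0.40 to 0.09). Fosl1 had 435, 429 and 432 at 2 h and 479, 502 and 457 at 6 h, a difference of 0.15 (95% interval -0.11 to 0.41). Both were above control at both times (Atf3 1.16 and 1.01, Fosl1 0.60 and 0.75). Junb differed by -0.30 (adjusted p = 0.0738).

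Among 22 Egr, Nr4a, Klf and related immediate-early factors 4 fell and 2 rose (6.8% and 3.68% of all genes). Nr4a3, an orphan nuclear receptor, had 45.2, 45.5 and 49.3 in the control, 79.9, 63.2 and 74.3 at 2 h, 56.1, 52.0 and 46.5 at 6 h and 88.6, 90.9 and 85.0 at 24 h (log2 difference -0.49, SE 0.09, adjusted p = 0.0120). It was raised at 2 h, close to control at 6 h and highest at 24 h, and its fall was not called within slide 1 (adjusted p = 0.0768). Its relative Nr4a2 took another course, from 488, 472 and 490.3 at 2 h to 636, 625 and 585 at 6 h (log2 difference 0.35, SE 0.05, adjusted p = 0.00596), and kept that rise in all 22 alternatives. Nr4a1 did not pass the test (-0.21, adjusted p = 0.0720). Klf2, a factor known from flow-sensing endothelium, fell without an early rise (log2 difference -0.40, SE 0.08, adjusted p = 0.0140), while Klf6 went from 2139, 2329 and 2167 to 1819, 1837 and 1921 (log2 difference -0.25, SE 0.06, adjusted p = 0.0322) after a rise at 2 h (0.26). Ier3 fell by 0.21 and Ier5 rose by 0.16. Egr1 had 1994, 1943 and 1979 at 2 h and 1613, 1580.5 and 1468 at 6 h without passing the test on this probe (-0.34, adjusted p = 0.0613), while a further probe gave -0.46 (adjusted p = 0.0215 over probes). The Klf6 call was lost without any 1 of 5 arrays (adjusted p up to 0.108), and within slide 1, without 2 h replicate 1 or without 6 h replicate 1 the list had 1 rise and 1 fall.

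Promoter entries existed for 1 of the 3 called AP-1 genes and 3 of the 6 called genes of the Egr, Nr4a and Klf list. Jund and Klf6 are shown because they carry motifs of the first transcription wave in capitals. The promoters of Nr4a2 and Ier5, which were also called, held neither of these motifs. Jund holds a cAMP response element (TGACGTCA, in 1.83% of promoters, either strand) at chr16:18769945-18770021 on the minus strand. Klf6 holds a CArG box, the motif of serum response factor (in 1.64% of promoters), at chr17:69458630-69458719 on the minus strand (GRCr8).
Jund: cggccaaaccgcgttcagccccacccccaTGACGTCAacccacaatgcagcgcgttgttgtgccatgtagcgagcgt
Klf6: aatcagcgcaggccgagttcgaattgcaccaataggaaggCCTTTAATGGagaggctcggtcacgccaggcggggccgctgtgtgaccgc
A match describes letters in the window only.

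Of 27 TGF-beta, BMP and activin genes 5 fell (6.8% of all genes did), 1 rose (3.68%) and 21 were not called. Smad7 and Skil had risen at 2 h against control and fell by 6 h. Smad7, which blocks the TGF-beta receptor, had 1893, 1906 and 1981 in the control, 3144, 2924 and 3360.1 at 2 h and 2309, 2211 and 2192 at 6 h (log2 difference -0.49, SE 0.06, adjusted p = 0.00265). The 2 h arrays stood above all others, and the 6 h arrays were still above the control. Skil, a repressor of Smad proteins, had 127, 153 and 125 in the control, 237, 206 and 209.6 at 2 h and 155, 146 and 154 at 6 h (log2 difference -0.52, SE 0.09, adjusted p = 0.00898). The ligand Tgfb3 and the BMP antagonist Grem1 fell by 0.38 and 0.52 without an early rise, and Ski by 0.23. Fstl3, which binds activin, rose by 0.34 (adjusted p = 0.0143). Without 6 h replicate 1 the list had 3 falls and no rise. Within slide 1, Smad7 was the fall of this list that kept its call (-0.47, adjusted p = 0.0333), while Skil had -0.53 (adjusted p = 0.0552). With spike-in scaling Smad7 was not called (-0.18).

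Hspa1b, the inducible heat-shock protein 70, had 945, 844 and 913 in the control, 1910, 1389 and 1969 at 2 h and 1277, 1140.5 and 1285 at 6 h (log2 difference -0.49, SE 0.12, adjusted p = 0.0329). At 24 h its values of 942, 857 and 1025 overlapped with the control. The call was lost without any 1 of 5 arrays (adjusted p up to 0.109) and within slide 1 (adjusted p = 0.103). Of 28 heat-shock genes, 2 rose, Hspa4 (0.28) and the mitochondrial chaperonin Hspe1 (0.23), and Hspa1b was the 1 that fell. Together this was near the share called among all genes (10.5%). Hspa4 lost its call without any 1 of 5 arrays (adjusted p up to 0.117) and Hspe1 without any 1 of 4 (up to 0.0835), and both within slide 1. Ccn2, a matrix-bound growth factor and target of YAP, had 42816, 38477 and 40376 at 2 h and 35365, 31886 and 36743 at 6 h (log2 difference -0.23, SE 0.06, adjusted p = 0.0497). That call was lost without any 1 of the 6 arrays (adjusted p up to 0.156), and all 6 h arrays stayed above the control, with 28811, 27702 and 25778. The YAP kinase Lats2 and the coagulation starter F3 fell by 0.20 and 0.33, so 3 of 16 YAP and CCN genes fell and none rose. Of all genes, 6.8% fell. The kinase-pathway inhibitors Spry2 and Dusp14 fell by 0.22 and 0.20, 2 of 15 in their list. Lats2 and Dusp14 lost their calls without any 1 of 5 arrays (adjusted p up to 0.0795 and 0.0875) and Spry2 without any 1 of 4 (up to 0.0953).

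Several genes raised at 2 h did not pass the test between 2 h and 6 h. Gjb2, the connexin 26 gene, had 197, 187 and 211 in the control, 425, 431 and 443 at 2 h and 340.3, 401 and 474 at 6 h (95% interval of the difference -0.33 to 0.11). Hmox1, heme oxygenase, had 12870, 13563 and 11322 at 2 h and 12800, 15088 and 12807 at 6 h, and the intervals of the difference were -0.18 to 0.40 for Hmox1 and -0.27 to 0.15 for the TWEAK receptor Tnfrsf12a. Ankrd1, a titin-bound stress protein, and Rcan1, a calcineurin inhibitor and target, differed by 0.07 and 0.11, and Myc by 0.04. All of these were above control at both times, by 0.40 (Ankrd1) to 1.02 (Gjb2) at 6 h on the log2 scale. These intervals leave room for small changes in either direction.

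Markers of hypertrophy and load rose between the times in 7 of 22 cases and fell in 2, against 3.68% and 6.8% of all genes. Il1rl1, which encodes the ST2 receptor for interleukin-33 and is released by strained heart muscle, had 790.0, 834 and 776 in the control, 1055, 977 and 1174 at 2 h and 1603, 1521 and 1727 at 6 h (log2 difference 0.60, SE 0.09, adjusted p = 0.00625). The 3 groups formed separate steps. A further Il1rl1 probe gave 0.09 (adjusted p = 0.729 over probes), so the probes of this gene disagree. Fhl1, a LIM protein that couples titin strain to kinase signalling, had 17107, 20091 and 19499 at 2 h and 27107, 26295 and 28564 at 6 h (log2 difference 0.53, SE 0.06, adjusted p = 0.00265), and its second probe also gave 0.53. The 2 h arrays of Fhl1 straddled the control, whereas all 6 h arrays lay above it. Xirp2, which binds actin filaments where heart muscle cells join, had 609, 885 and 936 at 2 h and 1255, 1122 and 1361 at 6 h (log2 difference 0.64, SE 0.15, adjusted p = 0.0271) and reached 2174, 2364 and 1822 at 24 h. Csrp3, the Z-disc protein MLP, rose at each time, from 46379, 42737 and 43271 to 49275, 50440 and 50886 to 63400, 61982 and 64373 (log2 difference 0.33, SE 0.05, adjusted p = 0.00700).

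Nppb, which encodes B-type natriuretic peptide, had 55565, 47876 and 50064 in the control, 65495, 70561 and 73131 at 2 h and 85029, 84382 and 88709 at 6 h (log2 difference 0.30, SE 0.08, adjusted p = 0.0350), again with no overlap between the groups. Acta1, the skeletal actin re-expressed in hypertrophy, had 13621, 13501 and 11994 at 2 h, 16775, 16357 and 15049 at 6 h and 12922, 13588 and 13000 at 24 h (log2 difference 0.30, SE 0.07, adjusted p = 0.0232), so its highest arrays were those of 6 h. Enah, an actin-filament elongation factor, rose by 0.23. Nppa, the atrial peptide, did not pass the test between 2 h and 6 h (0.08, adjusted p = 0.384), nor did the myosin heavy chains Myh6 (-0.21) and Myh7 (-0.20). Rises in the list numbered 3 within slide 1 or without 6 h replicate 1, 4 without 2 h replicate 1, 6 h replicate 2 or 6 h replicate 3, and 5 or 6 without either other 2 h array. The calls of Il1rl1, Fhl1 and Csrp3 held in all 22 alternatives. Xirp2 was lost without 2 h replicate 1 or 6 h replicates 1 or 3 (adjusted p up to 0.0855), Nppb without any 1 of 5 arrays (up to 0.115) and Acta1 without 2 h replicate 3 or 6 h replicates 1 or 2 (up to 0.0888). Promoter entries existed for 8 of the 9 called genes of this list. Of these 8, Acta1 and Fhl1 (in 1 of 2 promoters) held a CArG box. Acta1 is shown for its CArG box, in capitals, at chr19:68784239-68784328 on the minus strand (GRCr8).
Acta1: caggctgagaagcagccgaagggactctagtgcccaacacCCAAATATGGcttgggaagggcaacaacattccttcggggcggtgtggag

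**Figure D3:**
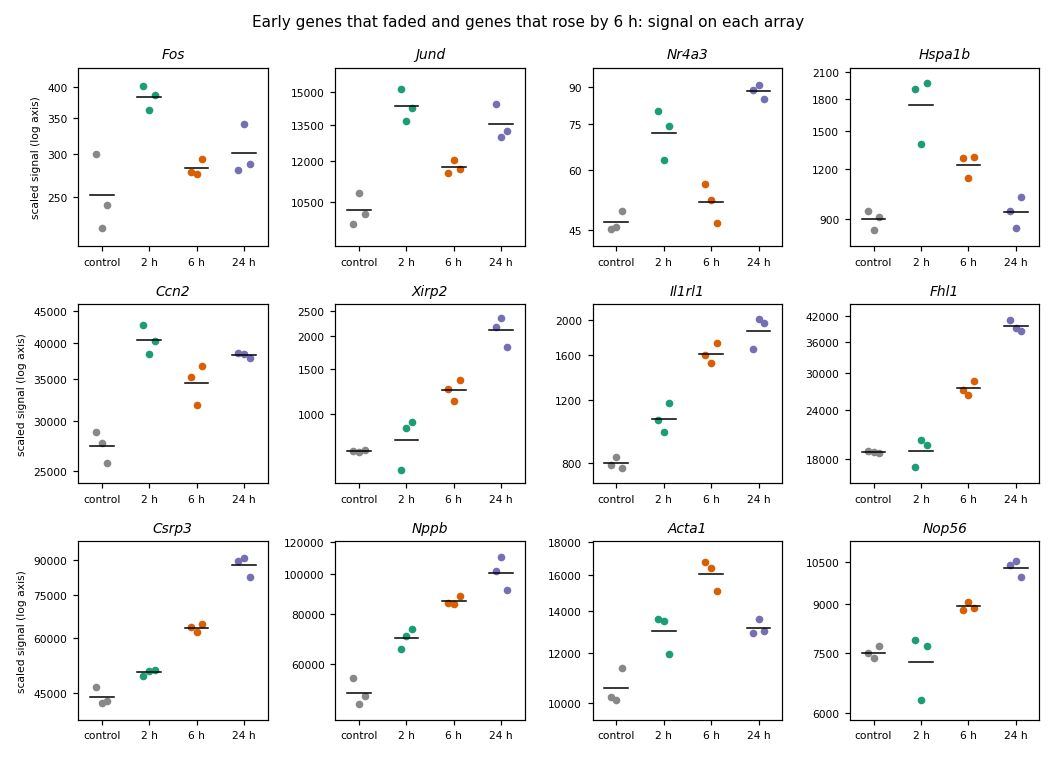
Scaled signal on a log axis for 12 genes in the control and after 2, 6 and 24 h of stretch, with points for arrays (3 per group) and bars for group means on the log scale. Fos, Jund, Nr4a3, Hspa1b and Ccn2 were lower at 6 h than at 2 h, and Xirp2, Il1rl1, Fhl1, Csrp3, Nppb, Acta1 and Nop56 were higher.

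Genes of ribosome assembly in the nucleolus rose in 13 of 62 cases and fell in none, with a median of 0.07. Of all genes, 3.68% rose and 6.8% fell. Nop56, a core protein of the particles that methylate ribosomal RNA, had 7864, 6304 and 7693 at 2 h and 8803, 9069 and 8865 at 6 h (log2 difference 0.30, SE 0.07, adjusted p = 0.0329), and the 6 h arrays lay above all 2 h and control arrays. Its partners Nop58 and Fbl rose by 0.27 and 0.19, and the assembly factors Gnl3, Nol8, Wdr75 and Lyar by 0.28, 0.27, 0.25 and 0.23. Against control, 6 of the 62 were higher at 2 h and 29 at 6 h, beside 3.1% and 5.06% of all genes. These small rises rested on all arrays together. With slide as a block or within slide 1 none of the 62 was called, without 6 h replicate 1 or 2 h replicate 1 there was 1 call, without 6 h replicate 2 there were 3 and without 2 h replicate 2 there were 5. The median stayed between 0.06 and 0.09 when 1 array was left out. Cytosolic ribosomal proteins did not follow, with 2 falls among 75 (Rpl3 -0.21 and Rpl7 -0.15) and 72 of 75 differences below 0, a direction that spike-in scaling turned (median 0.22).

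Aminoacyl-tRNA synthetases, which charge tRNAs for translation, had 6 rises and 1 fall among 37 (3.68% and 6.8% of all genes). The rises were Pars2, Yars2, Iars1, Hars2, Farsb and Tars1, by 0.19 to 0.27, and the fall was Fars2 (-0.21). A further Pars2 probe gave 0.09. Pars2 and Yars2 had been lower than control at 2 h (-0.36 and -0.19). Within slide 1 or without 6 h replicate 1 none of the 37 was called, and without any 1 of the 5 other arrays 1 to 4 rises were. Of 19 p53 targets 3 rose, Aen (0.27), the death gene Bbc3 (0.25) and Mdm2 (0.17, with -0.02 on a further probe), and none within slide 1 or without 6 h replicate 1. Duox2, which makes hydrogen peroxide, gave the largest rise among genes above background on all 6 arrays, from 52.9, 47.0 and 49.2 at 2 h to 92.5, 103 and 83.9 at 6 h and 171, 212 and 128 at 24 h (log2 difference 0.90, SE 0.16, adjusted p = 0.0102). It shared its list with the phagocyte oxidase subunit Ncf4, which fell by 0.39, and the Duox2 call was lost with normexp (0.41, adjusted p = 0.136).

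Potassium and sodium channel genes fell in 9 of 25 cases (6.8% of all genes) and rose in 2 (3.68%), with a median of -0.22. Scn4b, a sodium channel beta subunit, had 496, 541 and 565 at 2 h and 285, 315 and 331 at 6 h (log2 difference -0.78, SE 0.12, adjusted p = 0.00656). Kcnj12, a subunit of the inward rectifier that sets the resting potential, had 252, 267 and 262 at 2 h and 159.9, 143 and 179 at 6 h (log2 difference -0.70, SE 0.11, adjusted p = 0.00700). Kcnq1, the pore of the slow delayed rectifier, had 6682, 6414 and 6383 at 2 h and 4747, 4893 and 4679.5 at 6 h (log2 difference -0.44, SE 0.05, adjusted p = 0.00265). None of these 3 genes was called at 2 h against control, and in each all 6 h arrays lay below all 2 h arrays. Among the 6 other falls, Hcn4, Kcnj3, Kcnh2, Kcnj11 and Kcnj5 fell by 0.37, 0.35, 0.33, 0.29 and 0.15. Scn3b rose from 484, 589 and 584 to 762, 769.7 and 832 (log2 difference 0.52, SE 0.10, adjusted p = 0.0163) and Kcna4 by 0.17. Within slide 1 the list had 5 falls and no rise and without 6 h replicate 1 it had 4 falls and no rise, Scn3b being lost (adjusted p = 0.0801). With spike-in scaling it had 1 rise and no fall, and its median turned to 0.09.

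Some genes of fuel use in muscle fell, and most were not called. Of 38 genes of fatty-acid uptake and oxidation 8 fell (6.8% of all genes did) and none rose, with a median of -0.12. Plin5, a coat protein of lipid droplets, fell by 0.79 (adjusted p = 0.0150, but 0.0571 within slide 1), the fatty-acid transporter Slc27a1 by 0.39, the beta-oxidation enzyme Hadh by 0.34 and Pdk2, which restrains glucose oxidation, by 0.34. Of 38 genes of glycolysis and the hypoxia response 6 fell and none rose, among them Pfkm, the muscle phosphofructokinase, from 8365, 7784 and 7567 at 2 h to 6233, 6051 and 6217 at 6 h (log2 difference -0.36, SE 0.05, adjusted p = 0.00596), and Pgam2 by 0.35. Creatine kinases Ckm and Ckb and the creatine-making Gamt fell by 0.33, 0.28 and 0.20, 3 of 7. With slide as a block 1 of the 38 fatty-acid genes, 1 of the 38 glycolysis genes and none of the 7 creatine genes was called. Without 2 h replicate 1 these counts were 0, 1 and 0, and without 6 h replicate 1 they were 1, 2 and 0. With spike-in scaling all 3 medians were above 0 (0.19, 0.19 and 0.05).

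Contractile genes were called about as often as all genes (10.5%). Of 28 sarcomere genes 2 fell, the M-band protein Myom2 (-0.31) and the myosin-binding Mybphl (-0.33), and 1 rose, Smpx (0.28), and none of these calls held within slide 1. Of 24 calcium-handling genes 1 was called, Hrc, a calcium buffer of the sarcoplasmic reticulum, from 3515, 3332 and 2959 to 2418, 2345 and 2483 (log2 difference -0.43, SE 0.07, adjusted p = 0.00731). Atp2a2, the SERCA pump, differed by -0.06 (95% interval -0.20 to 0.09). The beta-1 adrenergic receptor Adrb1, the alpha-1B receptor Adra1b and Rgs5 fell by 0.42, 0.33 and 0.43, while Rgs2, which shortens Gq signalling, rose by 0.23, in a list of 28. Adrb1 lost its call without any 1 of the 6 arrays (adjusted p up to 0.114), Rgs2 without any 1 of 5 (up to 0.111), and Adra1b and Rgs5 without any 1 of 4 (up to 0.0936 and 0.105). The angiotensin receptor Agtr1a and the converting enzyme Ace fell by 0.33 and 0.28, 2 of 8. Ace and the sarcomere gene Myom2 lost their calls without any 1 of 5 arrays (adjusted p up to 0.164 and 0.0890). No gene was called among 35 of the unfolded protein and integrated stress response, 30 NRF2 targets and 35 proteasome subunits.

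**Figure D4:**
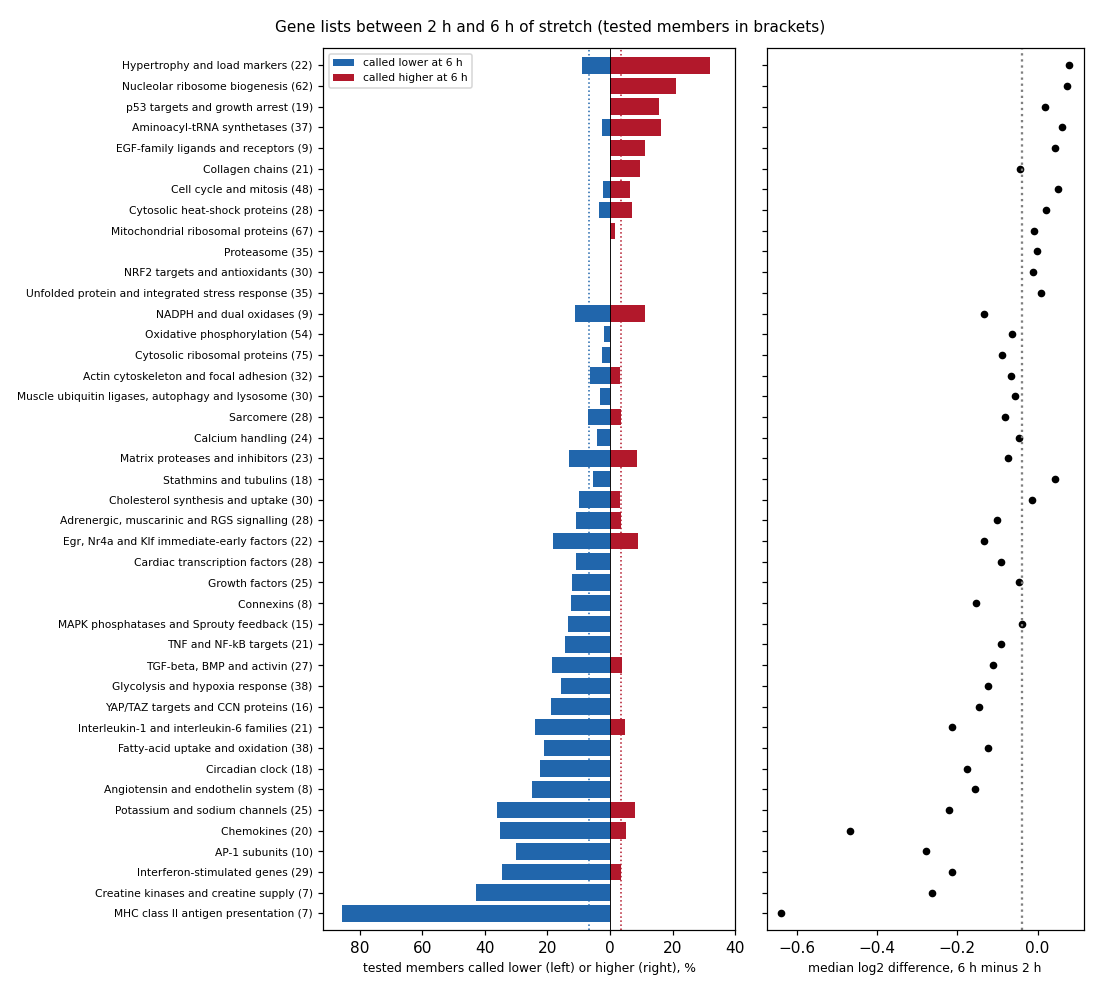
Left, share of the tested members of 42 gene lists called lower (blue) or higher (red) at 6 h than at 2 h, in percent, with dotted lines at the shares of all 14376 genes (6.8% lower, 3.68% higher). Right, the median log2 difference of each list, with a dotted line at the median of all genes (-0.04). MHC class II has 6 of 7 members lower and a median of -0.64, and the hypertrophy list has the highest share of rises, 7 of 22.

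Early changes that faded were sorted from changes that began after 2 h by combining the calls of 3 comparisons, which share arrays. The 2 h arrays enter both the early change and the change after it, so these counts describe the genes and were not tested. At 2 h 9.2% of all genes were called against control, 3.1% higher and 6.1% lower. Of 445 genes called higher than control at 2 h, 83 fell between 2 h and 6 h, 18 rose further and 344 were not called between the times. Of 877 genes called lower at 2 h, 212 rose back, 26 fell further and 639 were not called. The 83 fading rises had a median of 0.36 above control at 2 h and 0.03 at 6 h, and 66 of them were no longer called at 6 h, 12 still were, and 5 were called below control. The 212 fading falls went from -0.37 to -0.04, with 199 no longer called. They were dim, with a median signal of 290 at 2 h against 622 for all genes tested.

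Changes that began after 2 h were more often falls on this scale. In 587 genes the level was not called at 2 h and was called lower at 6 h against both other groups, with medians of -0.02 at 2 h, -0.34 at 6 h and -0.49 at 24 h against control, and 534 of them were also called lower at 24 h (31.7% of all genes). In 146 genes the change was a late rise, with medians of 0.00, 0.29 and 0.41, and 135 were called higher at 24 h (16.2% of all genes). The 24 h calls reuse the control arrays that defined both classes. Array-median scaling gave 232 late falls and 460 late rises, so the balance of these classes depends on the scale. Late rises included Duox2, Xirp2, Fhl1, Nif3l1 (0.54) and the neuropeptide Gal (0.68), and late falls Il1a, Ccl4, Cxcl2 and Mmp9. The Gal call was lost without any 1 of 4 of the 6 arrays (adjusted p up to 0.0781), within slide 1 (adjusted p = 0.109) and with normexp (0.27). Another 434 genes were called between the times but not against control at 2 h or 6 h, 153 higher and 281 lower. Against control at 24 h, 73 of the 153 were called higher and 5 lower. Of the 281, 206 were called lower there and 8 higher.

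A change in the same direction at both steps was seen in 18 rises and 26 falls. Continued rises included Csrp3, Nppb, Acta1, Enah, Fstl3, Il1rl1, the Z-disc protein Pdlim3 (0.38, with 0.05 on a further probe) and the keratin Krt18 (0.33), which went from 12114, 10576 and 12123 in the control to 15784, 13191 and 16052 at 2 h and 20012, 18263 and 18170 at 6 h. Krt18 lost its call between the times without any 1 of 5 of the 6 arrays (adjusted p up to 0.122). Pdlim3 lost it without 2 h replicate 1 or 6 h replicates 1 or 3 (up to 0.0764), and neither was called within slide 1. All 18 continued rises were also called higher at 24 h (16.2% of all genes), but that comparison reuses the control arrays by which they were chosen. Continued falls included Tnf, the inflammasome adaptor Pycard (-0.51) and the inflammatory caspase Casp4 (-0.45). The sizes of the classes depended on the arrays used. Leaving out any 1 of the 9 arrays of the control, 2 h and 6 h groups gave 1 to 7 continued rises and 5 to 17 continued falls. Fading rises ranged from 28 (without 6 h replicate 1) to 68, with 40 without control replicate 2, and fading falls from 71 (without 6 h replicate 1) to 201, with 113 without control replicate 3. Late falls ranged from 146 and late rises from 28, both without 6 h replicate 1, to 557 and 152.

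**Figure D5:**
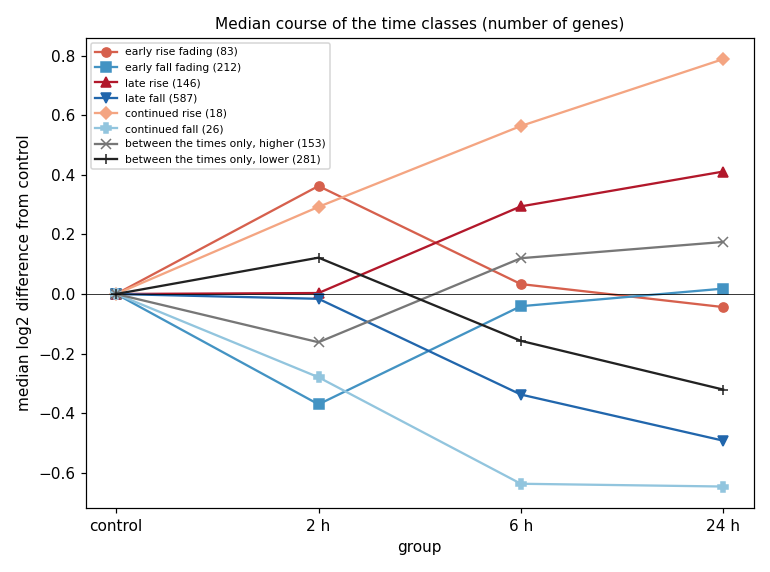
Median log2 difference from control at 2, 6 and 24 h for the genes of each time class, with the number of genes in the key. Fading rises return from 0.36 at 2 h to 0.03 at 6 h, fading falls from -0.37 to -0.04, and late falls reach -0.34 at 6 h and -0.49 at 24 h. The lines join medians of groups that share the control arrays.

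Outside the lists, the largest falls above background on all 6 arrays were Mrgprx3, Reg3b, LOC361016, Ky, Fads6 and Ccl12. Reg3b, a secreted C-type lectin that draws macrophages to the injured heart, had 17103, 17622 and 24038 at 2 h and 7919.5, 9986 and 10513 at 6 h (log2 difference -1.04, SE 0.21, adjusted p = 0.0166), and lost its call without 6 h replicate 1. Ky, a muscle protein of the Z-disc, fell by 0.96 and Mrgprx3 by 1.13. Ccl12 had 97.5, 91.7 and 92.6 in the control, 113, 155 and 189.7 at 2 h and 78.2, 72.9 and 81.2 at 6 h (log2 difference -0.95, SE 0.17, adjusted p = 0.0108), a rise that had faded. Of the largest rises, Gnrh1, the gonadotropin-releasing hormone gene, went from 199.6, 192 and 208 in the control to 126, 147 and 152 at 2 h and 243, 232 and 253 at 6 h (log2 difference 0.78, SE 0.07, adjusted p = 0.00106). Its 2 h arrays were the lowest and the 6 h arrays the highest of the 3 groups, without overlap. Ubap1l, Hils1, Fancb and Ccdc62 took a like course, below control at 2 h and back near it at 6 h, with differences of 0.74, 0.71, 0.73 and 0.66. Vwa2-ps1 was not well above background on any 6 h array and was at least 2.27-fold lower than at 2 h (adjusted p = 0.00663), taking the 6 h level as the lowest signal above background. By the same rule, Dnd1 was at least 1.21-fold and Snrnp48 at least 1.25-fold higher at 6 h, since no 2 h array was above background (adjusted p = 0.0166 and 0.0162). Both calls were lost with normexp (0.17 and 0.13, adjusted p = 0.588 and 0.526), with the series matrix values and within slide 1. Snrnp48 was also lost without 6 h replicate 1, and Vwa2-ps1 lost its call with normexp (-0.53, adjusted p = 0.0661).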

How the data were processed

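RNA was measured on 12 one-colour Agilent arrays, 3 per group. The deposited intensity values are processed signals that the authors' image software had corrected for background and detrended within each array, per the file headers (Feature Extraction 11.0.1.1; version 10.7.3.1 stands in the submitters' processing notes). The flags for spots above background and outliers, of the type other, were used as deposited, per the file headers. Probe positions are those of build rn4 in the files.

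Log2 signals were reduced by each array's 75th percentile, outlier spots were dropped and spots of a probe averaged. Of 30367 probes, 18997 passed the detection filter, which asked for 1 group with every array well above background, and the brightest probe stood for its gene. Group means were fitted to all 12 arrays with limma 3.58.1 in R 4.3.3, two-sided, with Benjamini-Hochberg adjustment over 14376 genes and a call at an adjusted p under 0.05. The script was tested on simulated data. The number of arrays, 3 per group, limits the precision. A scaled signal is the antilog after the 75th percentiles were set equal. Bounds set a dim group at the lowest signal above background.

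Genes, gene lists and time classes were chosen with earlier results of these data known. Named genes were the 15 largest called rises and falls without overlap, up to 4 called members of each list, up to 8 genes of each time class and a fixed set of load and early-response genes. Other called list members are given by value. Alternatives covered scaling, background correction, the filter, slide, replicate block, probe choice and left-out arrays. Promoters came from RefSeq (GRCr8), 250 bases before to 50 after each start.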

Additional observations from a re-analysis of the deposited data

Results flagged for a closer look

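In 6 genes the level was called on one side of the control at 2 h and on the other side at 6 h, and the difference between the times was itself called by limma over 14376 genes. Gnrh1, the gonadotropin-releasing hormone gene, went from -0.50 against control at 2 h to 0.28 at 6 h, a difference of 0.78 (adjusted p = 0.00106). In the main scaling, the 5 others were above control at 2 h and below it at 6 h. Ccl7, a monocyte chemokine, went from 0.42 to -0.33 (difference -0.75, adjusted p = 0.00416). Coro1a, an actin-binding protein of white blood cells, went from 0.29 to -0.32 (difference -0.61, adjusted p = 0.00217). Atp1b2, a sodium pump subunit, went from 0.28 to -0.32 (difference -0.6, adjusted p = 0.00225). Irx3, a transcription factor of the conduction system, went from 0.19 to -0.19 (difference -0.38, adjusted p = 0.00225). Cygb, the globin cytoglobin, went from 0.19 to -0.14 (difference -0.34, adjusted p = 0.00416). Both comparisons with control use the same 3 control arrays. Spike-in scaling moved the median of all genes at 2 h against control from -0.006 to 0.17. Between 2 h and 6 h it moved from -0.04 to 0.27. This scaling moves every gene of an array by the same amount. Together the shifts are larger than the distance of any of the 5 genes below control at 6 h. On the spike-in scale the 5 genes therefore lie above control at 6 h, and this difference was not tested. The call between the times was lost there for Ccl7 (-0.44, adjusted p = 0.155) and Irx3 (-0.07, adjusted p = 0.794). Gnrh1 kept it (1.09, adjusted p = 1.2e-05).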

How the results depend on the processing

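The numbers of calls in the main setting were 1506 genes, 529 rises and 977 falls, and under the other settings below the counts moved by more than 1.5 times. Array-median scaling gave 1049 rises, 453 falls, 460 late rises, 232 late falls, 40 continued rises and 10 continued falls. No detection filter gave 442 calls, 135 rises, 307 falls, 22 fading rises, 54 fading falls, 36 late rises, 211 late falls, 1 continued rise, 2 continued falls and 116 genes called between the times only. Normexp background correction gave 619 calls, 216 rises, 403 falls, 35 fading rises, 75 fading falls, 78 late rises, 287 late falls, 7 continued rises, 12 continued falls and 125 genes called between the times only. The 6 arrays of both times alone gave 362 calls, 96 rises and 266 falls. Quantile normalization gave 946 rises, 623 falls, 279 late rises and 346 late falls. The series matrix values gave 234 late rises and 377 late falls. Slide 1 alone gave 238 calls, 49 rises, 189 falls, 24 fading rises, 25 fading falls, 18 late rises, 128 late falls, 1 continued rise, 11 continued falls and 31 genes called between the times only. Slide as a block gave 599 calls, 176 rises, 423 falls, 46 fading rises, 88 fading falls, 41 late rises, 289 late falls, 3 continued rises, 17 continued falls and 115 genes called between the times only. Spike-in scaling gave 659 calls, 30 falls, 13 fading rises, 29 fading falls, 452 late rises, 11 late falls, 1 continued rise, 0 continued falls and 153 genes called between the times only. With the replicate number as a block, 1139 genes were called and continued rises moved to 7, with all other counts within 1.5 times. Same-numbered arrays of 2 h and 6 h had correlations of -0.04, -0.05 and 0.07 in their deviations from the group means. Pairs with unlike numbers ranged from -0.14 to 0.17. No label says that equal numbers pair cultures, and with 3 arrays per group these values cannot decide it. Leaving out 1 control, 2 h or 6 h array gave 345 to 1475 calls, 119 to 526 rises, 226 to 982 falls, 28 to 68 fading rises, 71 to 201 fading falls, 28 to 152 late rises, 146 to 557 late falls, 1 to 7 continued rises, 5 to 17 continued falls and 63 to 554 genes called between the times only. Leaving out a control array was chosen after seeing the data. Slide as a block and leaving out 6 h replicate 3 gave the same counts, so the 22 alternatives are not all separate checks. Of 176 named genes called, 19 kept their call under all 22 alternatives, 20 lost it with spike-in scaling alone, and 26 turned sign there without being called: Jund (0.025), Jun (0.072), Klf6 (0.063), Spry2 (0.092), Dusp14 (0.11), Myom2 (0.0051), Ace (0.037), Ccn2 (0.085), Lats2 (0.12), Vasp (0.042), Igf2 (0.086), Fgf18 (0.12), Scd (0.005), Pmvk (0.097), Pdk1 (0.046), Egln1 (0.055), Ndufa9 (0.089), Rpl3 (0.10), Rpl7 (0.16), Fars2 (0.098), Nfil3 (0.11), Irx5 (0.064), Gata5 (0.072), Ckb (0.035), Gamt (0.11) and Cdh5 (0.0057). The time classes could not be computed from the 6 arrays alone, since they need the control. Spike-in scaling moves all genes of an array by the same amount, so the 26 turns of sign come from a shift that all genes share. The cause of the other shifts was not tested. Fits that leave arrays out also hold fewer arrays, and the part of that number was not tested either. Dim probes limit the precision, and normexp correction shrank several of their differences.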

Other observations

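Called members of further lists are given beside the share of all genes called, 10.5% (6.8% lower, 3.68% higher). Of 18 circadian clock genes 4 fell between 2 h and 6 h and none rose. These were the output factors Dbp (-0.41, with -0.33 and -0.32 on further probes) and Tef (-0.33), the repressor Bhlhe40 (-0.41) and Nfil3 (-0.20), and spike-in scaling turned the list median from -0.18 to 0.14. Of 28 cardiac transcription factors Irx3 (-0.38), Irx5 (-0.25) and Gata5 (-0.24) fell, a share near that of all genes. Of 30 genes of cholesterol synthesis and uptake 3 fell, Scd (-0.31) and Pmvk (-0.22) among them, and Stard4 rose by 0.17, with -0.09 on a further probe. Of 21 collagen chains Col4a3 (0.60) and Col12a1 (0.39) rose, and further probes of Col12a1 gave 0.02 and 0.07. Of 48 cell cycle genes Cenpe (0.33), Kif11 (0.24) and Ccna2 (0.19) rose and the cyclin Ccnd2 fell by 0.32, together a smaller share than over all genes. Kif11, Ccnd2 and Stard4 lost their calls without any 1 of the 6 arrays (adjusted p up to 0.151, 0.0911 and 0.159). Cenpe, Ccna2, Scd, Pmvk and Col12a1 lost them without any 1 of 5 arrays (up to 0.161, 0.128, 0.131, 0.122 and 0.113), and Gata5 and Col4a3 without any 1 of 4 (up to 0.0702 and 0.0564).

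Among 2036 probes without a gene name in the files, 0 were called by limma at an adjusted p under 0.05, and 380 had an unadjusted p under 0.05.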
